A study of Mus musculus with 6 samples.

Results

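Rab GTPases are the largest family of small GTPases of membrane traffic. Each Rab cycles between a GTP-bound and a GDP-bound form. The GTP-bound form sits on the membranes of particular vesicles or organelles and recruits effectors there (motors, tethers, fusion factors). The GDP-bound form is kept in the cytosol by a GDP dissociation inhibitor. Guanine exchange factors (GEFs) load GTP and GTPase-activating proteins (GAPs) end the active state. In lymphocytes Rab proteins carry receptors through recycling endosomes, and a small set of them, Rab27a first among these, dock the lysosome-related secretory granules that cytotoxic and innate cells release. The members described here are the genes of the deposited table whose symbol is Rab followed by a number and at most 1 letter from a to d. The rule found 56 of 22609 genes and used no measured value, but members were chosen with earlier results of these data known. Of these, 55 had a p-value and Rab9b was listed at 0 for both groups per the authors' deposited table.

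The RNA came from early T cell progenitors, the most immature cells of the thymus, sorted from fetal thymus of C57BL/6 mice as lineage-negative CD44+ c-Kit+ cells without CD25, CD4 or CD8. The control group is 3 wild-type libraries. The other group (dKO) is 3 libraries of the genotype E2Afl/fl HEBfl/fl IL7RCre, in which a Cre recombinase driven by the Il7r locus deletes the E proteins E2A (gene Tcf3) and HEB (gene Tcf12), transcription factors of lymphoid development. The dKO cells were in addition sorted as YFP+ and the controls were not, so genotype and gate cannot be told apart. The labels give neither the fetal age nor whether replicate libraries are from different animals, so that the spread behind each p-value may be technical only. In bulk RNA, fewer cells of a type and less RNA per cell cannot be told apart. Of 7 markers of the sorted population, 2 rose, 2 fell and 3 did not pass, where 29.0% of all tested genes rose or fell. Kit rose from 14094 in control to 19067 in dKO and Ptprc, the pan-leukocyte CD45 gene, from 12323 to 17415, while Flt3, a receptor of early progenitors, fell from 1080 to 327 and Cd4 from 104 to 34.8 per the authors' deposited table. Cd44 (3220 and 2765) and Cd8a (9.51 and 27.2) did not pass, nor did Il2ra, which encodes CD25 and stood at 8417 and 8536 although the gate excluded the protein. The deletion can be seen in the targeted genes: Tcf3 fell from a mean of 8931 to 364 and Tcf12 from 3845 to 562 per the authors' deposited table. The spacing of low means gives the relative scale of each library. From it, reads counted on genes were near 18.2, 21.0 and 22.6 M in the control and 24.3, 25.1 and 27.0 M in the dKO libraries. These values assume that the libraries of a group have equal totals once normalised.

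All levels below are group means of normalised counts, that is read counts divided by a size factor per library and averaged over the 3 libraries, and a gene is said to rise or fall in dKO where the adjusted p was under 0.05 in the authors' deposited table. The table has no value per library. For means of up to 100 the reads of each library could be solved from the mean, and libraries are named by their size factors (1.02, 0.952 and 0.823 in control, 1.16, 1.08 and 1.04 in dKO). Above that, more than 1 combination of reads can give the same mean, and all of them are given for the genes described by library. None was sought for means over 500.

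Of the 55 Rab genes with a test, 13 rose, 6 fell and 36 did not pass per the authors' deposited table. That is 34.5% called, where 29.0% of all 16241 tested genes were called, 15.1% as higher and 13.8% as lower in dKO. Low genes are seldom called, and at means of 100 or more the shares were 42.1% of 38 Rab genes and 40.4% of all 10302. By direction, 34.2% of these 38 Rab genes rose and 7.89% fell, beside 21.2% and 19.1% of all genes of that abundance. The median log2 change was 0.18 over the 55 Rab genes, beside -0.01 over all tested genes. Most rises were small: 10 of the 13 lay between 1.32-fold and 1.60-fold. Falls were fewer and steeper, since 5 of 6 were at least 2-fold. The groups differed in abundance, however. All 13 rises were at means of 100 or more, where 3 genes fell, 2 of them at least 2-fold. The other 3 falls, all at least 2-fold, were at means under 100. In all, 8 Rab genes moved at least 2-fold, Rab27b, Rab19 and Rab15 up and Rab38, Rab6b, Rab31, Rab44 and Rab17 down, which is 8 of 55 where 12.6% of all tested genes did so. Summed over all 56 genes the normalised counts were 71944 in control and 81941 in dKO, a ratio of 1.14. The total over all genes of the table was also higher in dKO, at 22.1 M in control and 23.4 M in dKO. Per M of that total the Rab sum was 3257 in control and 3504 in dKO. Part of the difference in the Rab sum was thus shared with the whole table.

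**Figure D1:**
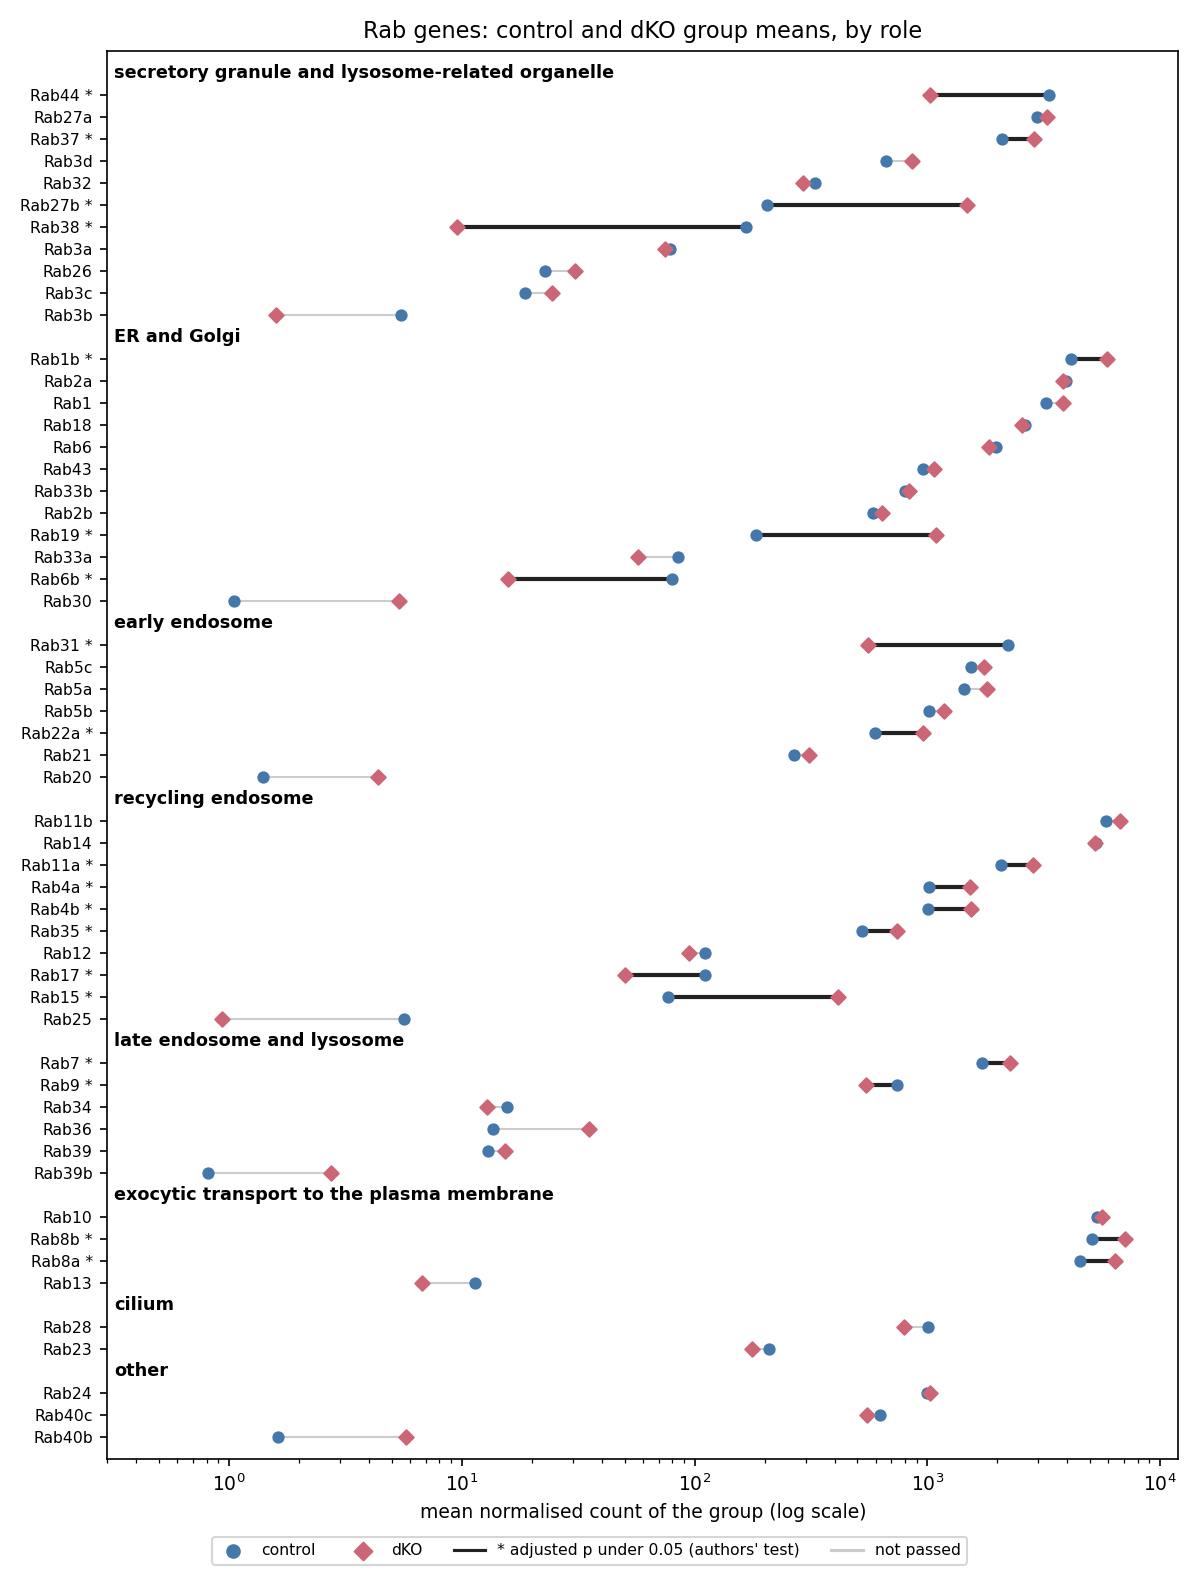
Group means of the 55 tested Rab genes in normalised counts on a log axis, ordered by role and by control mean, with circles for control and diamonds for dKO. Dark bars and asterisks mark the 19 genes with an adjusted p under 0.05 in the authors' deposited table. Long dark bars stand out for Rab38, Rab27b, Rab19, Rab15, Rab6b, Rab31 and Rab44, and most abundant members have short bars.

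The start regions of the members that moved at least 2-fold are shown here because the deleted factors bind E-boxes, 6-base sites of which CAGCTG and CAGGTG are the forms best known for E proteins. Of the 8 genes changed at least 2-fold, 5 had a RefSeq start region (build GRCm38.p6, 250 bases before to 50 bases after the start, read 5′ to 3′ on the gene's strand). Rab27b, Rab38 and Rab44 are not shown. The region of Rab19 is chr6:39381103-39381402 on the plus strand, that of Rab15 is chr12:76822475-76822774 on the minus strand (the most upstream of its 4 starts), that of Rab31 is chr17:65772703-65773002 on the minus strand, that of Rab6b is chr9:103111824-103112123 on the plus strand and that of Rab17 is chr1:90967618-90967917 on the minus strand. Capitals mark CAGCTG and CAGGTG, the latter on either strand, so that it can read CACCTG, and CAGCTG reads the same on both strands. Matches of these motifs cannot overlap.
Rab19: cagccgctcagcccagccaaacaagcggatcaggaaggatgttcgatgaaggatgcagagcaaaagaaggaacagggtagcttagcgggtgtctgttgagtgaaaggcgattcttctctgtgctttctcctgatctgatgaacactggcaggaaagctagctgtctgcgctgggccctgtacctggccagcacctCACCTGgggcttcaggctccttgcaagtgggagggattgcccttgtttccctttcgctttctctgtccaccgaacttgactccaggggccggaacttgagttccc
Rab15: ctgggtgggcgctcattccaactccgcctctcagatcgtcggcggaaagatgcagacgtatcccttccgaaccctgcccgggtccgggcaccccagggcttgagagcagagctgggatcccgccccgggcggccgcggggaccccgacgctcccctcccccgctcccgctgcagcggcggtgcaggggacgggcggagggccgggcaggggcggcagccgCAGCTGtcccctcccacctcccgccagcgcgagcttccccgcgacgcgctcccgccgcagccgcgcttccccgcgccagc
Rab31: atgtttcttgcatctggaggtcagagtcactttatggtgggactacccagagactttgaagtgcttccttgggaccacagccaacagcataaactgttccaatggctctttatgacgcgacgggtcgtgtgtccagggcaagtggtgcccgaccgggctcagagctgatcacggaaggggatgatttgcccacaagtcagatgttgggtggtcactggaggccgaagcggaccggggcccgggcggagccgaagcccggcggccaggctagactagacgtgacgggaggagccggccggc
Rab6b: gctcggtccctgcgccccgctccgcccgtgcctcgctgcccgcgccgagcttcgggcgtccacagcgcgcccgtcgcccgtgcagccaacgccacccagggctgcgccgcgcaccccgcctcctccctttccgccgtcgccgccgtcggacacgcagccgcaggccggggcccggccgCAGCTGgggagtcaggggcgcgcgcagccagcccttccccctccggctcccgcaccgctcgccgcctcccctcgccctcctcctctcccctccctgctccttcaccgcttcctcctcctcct
Rab17: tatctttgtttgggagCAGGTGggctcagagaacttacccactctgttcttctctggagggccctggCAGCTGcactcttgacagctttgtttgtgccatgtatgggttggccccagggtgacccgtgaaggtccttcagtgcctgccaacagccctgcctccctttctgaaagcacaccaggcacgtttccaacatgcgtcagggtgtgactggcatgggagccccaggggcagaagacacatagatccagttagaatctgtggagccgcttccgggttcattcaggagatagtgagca

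Rab19, which rose, holds CACCTG 55 bases before the start, and Rab15, which also rose, holds CAGCTG 30 bases before it. Rab6b, which fell, holds CAGCTG 72 bases before the start, and Rab17, which also fell, holds CAGGTG 234 and CAGCTG 183 bases before it. The window of Rab31, which fell, has neither set of letters. These letters are common: CAGCTG is in 16.3% and CAGGTG or its reverse complement in 20.2% of all 32851 start regions of the same length, and 32.9% hold at least 1 of them. Over all members with an entry, 5 of 14 start regions of Rab genes that rose, 3 of 4 of those that fell and 12 of 39 of those that did not pass held at least 1. A match is a description of the sequence and shows no binding.

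The Rab genes of secretory granules and lysosome-related organelles moved in both directions. Of 11 tested, 2 rose, 2 fell and 7 did not pass per the authors' deposited table. The share called was 36.4%, beside 34.1% of the 44 other Rab genes and 29.0% of all tested genes. Rab27b, which docks granules in mast cells and platelets, rose 7.27-fold from 205 to 1488 (authors' adjusted p = 1.96e-57) per the authors' deposited table. Its control reads had 2 solutions, 160, 251 and 203 or 405, 148 and 60.7 normalised counts in the libraries of size factor 1.02, 0.952 and 0.823. In either case every control library lay under the dKO mean. Leaving out the control library with size factor 1.02 gave a 6.56-fold rise in the first solution and a 14.3-fold rise in the second. Rab37, another Rab of secretory granules, rose 1.36-fold from 2100 to 2865 (authors' adjusted p = 0.00108) per the authors' deposited table.

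Rab38, which together with Rab32 sorts cargo to melanosomes and other lysosome-related organelles, fell 17.4-fold from 166 to 9.53 (authors' adjusted p = 2.37e-14) per the authors' deposited table, the steepest change of the 55 Rab genes in either direction among those that passed. Its dKO libraries had 18, 14 and 0 reads, or 15.6, 13.0 and 0 normalised counts in the libraries of size factor 1.16, 1.08 and 1.04. The 0 of the third library allows up to 2.89 normalised counts (3 reads, counting error only). The control reads had 2 solutions, 188, 143 and 168 or 433, 39.9 and 25.5 normalised counts, and in both every control library lay above every dKO library. The fall was 11.6-fold without the dKO library of size factor 1.04 and 25.5-fold without that of 1.16. Leaving out the control library with size factor 1.02 made it 16.3-fold in the first solution and 3.43-fold in the second. Rab44, a large Rab with calcium-binding motifs that takes part in mast cell granule release, fell 3.22-fold from 3319 to 1031 (authors' adjusted p = 1.03e-38) per the authors' deposited table.

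The other 7 members of this set did not pass. Rab27a, the Rab of cytotoxic granule docking, had means of 2961 in control and 3281 in dKO (authors' adjusted p = 0.382) per the authors' deposited table. Rab32, the close relative of Rab38, had 330 and 291 (authors' adjusted p = 0.713) per the authors' deposited table. Of the Rab3 genes, known from regulated exocytosis in neurons and glands, Rab3d had 662 and 856 (authors' adjusted p = 0.0894), Rab3a 78.3 and 74.8, Rab3c 18.6 and 24.5, and Rab3b 5.45 and 1.58 per the authors' deposited table. Rab3a lay at 86.9, 87.2 and 60.7 normalised counts in the control libraries of size factor 1.02, 0.952 and 0.823. In dKO it lay at 79.6, 75.3 and 69.4, inside the control range. Rab3c had 16.6, 21.0 and 18.2 in control and 24.2, 21.4 and 27.9 in dKO, which did not overlap although its adjusted p was 0.875 per the authors' deposited table. Rab26, a Rab of secretory vesicles, had means of 22.8 and 30.7 per the authors' deposited table, and its dKO libraries were spread from 10.2 to 41.5. With 3 libraries against 3 the smallest 2-sided p of an exact permutation test is 0.1, so values per library are given as a description.

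**Figure D2:**
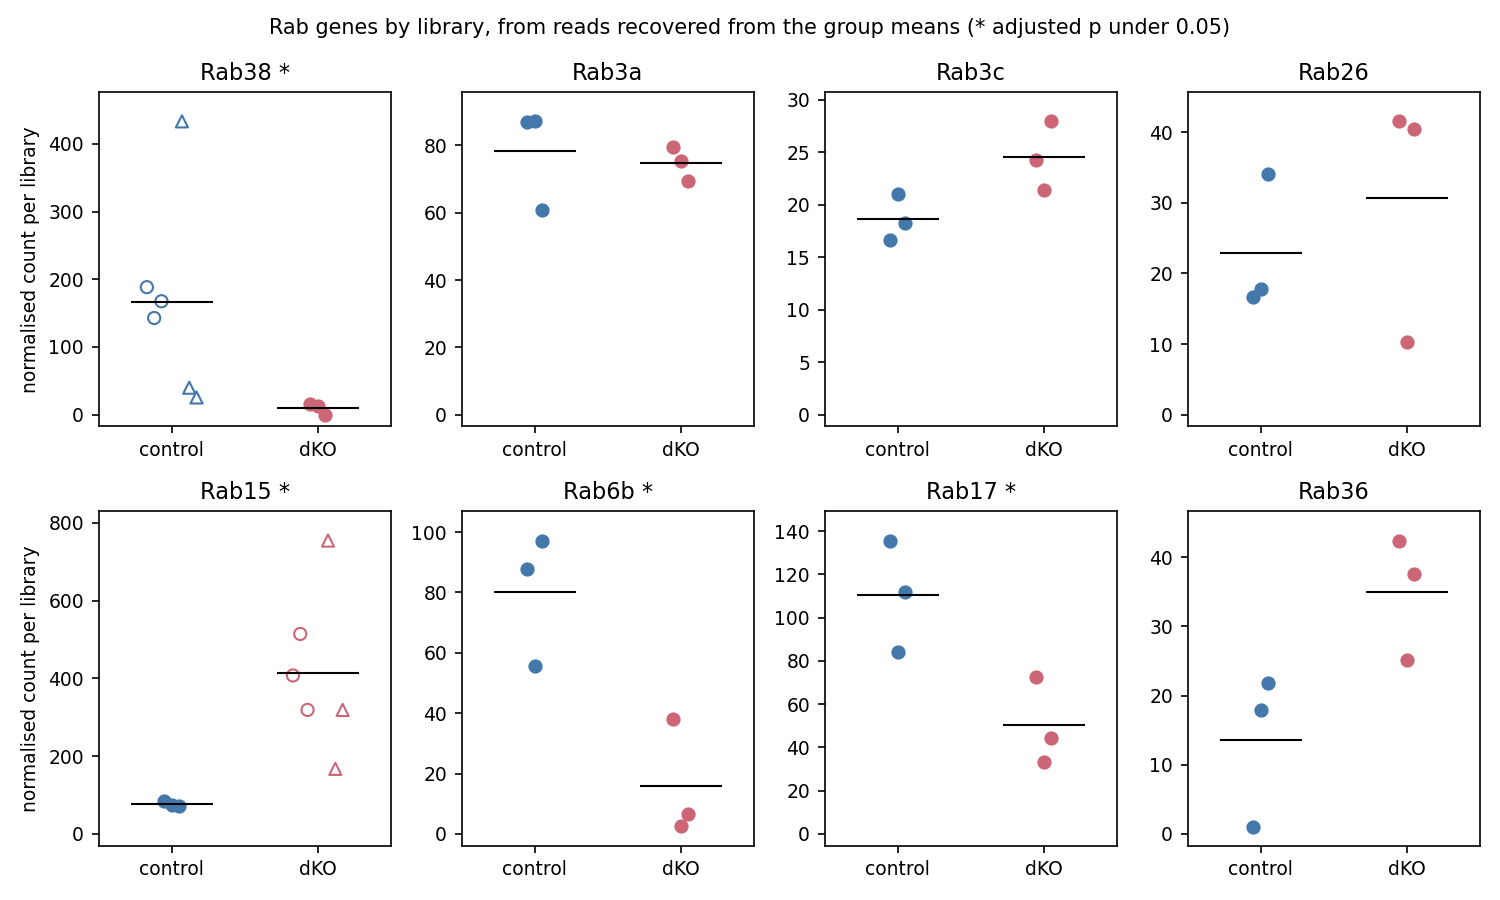
Normalised counts per library (vertical axes, linear and different for each gene) of 8 Rab genes in control and dKO, from reads solved from the group means, with a line at the group mean. Filled points are the only solution, open circles and triangles are the 2 possible solutions for Rab38 in control and Rab15 in dKO, and asterisks mark genes with an adjusted p under 0.05 in the authors' deposited table. The groups are apart for Rab38, Rab15, Rab6b, Rab17, Rab36 and Rab3c and overlap for Rab3a and Rab26. The genes drawn were picked, so these panels give no rate. Rab33a, Rab34, Rab39 and Rab12 also overlap and are not drawn. Of all 8 Rab genes with a mean of at least 10 and both means up to 100, 3 did not overlap. The share was 33.8% over all genes of that kind.

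Markers of cells that use such granules are given beside these genes, since Rab27b, Rab37 and Rab44 are known from mast cells and Rab27b also from platelets. Of 12 mast cell and basophil markers, all with reads in both groups, 5 rose, 4 fell and 3 did not pass per the authors' deposited table, and their summed means were 8662 and 6373. The protease genes Cpa3 (5824 and 2147) and Mcpt2 (149 and 25.6) fell while Tpsb2 (19.1 and 217) and Gata2 (523 and 1037) rose per the authors' deposited table. Of 10 granulocyte, monocyte and macrophage markers found, 4 fell and 1 rose, with summed means of 8854 and 2555. Mpo, which made up most of that sum, fell from 7310 to 1457 per the authors' deposited table, and S100a8 and S100a9 were listed at 0 in both groups. Of 6 NK cell markers 5 rose, with summed means of 362 and 1371, and Klra8 was listed at 0 for both groups per the authors' deposited table. Of 9 erythroid and platelet markers, 2 fell, none rose and 5 did not pass, with summed means of 1751 and 736, and the globin genes Hba-a1 and Hbb-b1 were listed at 0. The platelet genes Itga2b (1481 and 583) and Gp9 (84.4 and 21.4) were those that fell per the authors' deposited table. The part of these cells in the Rab changes was not tested. Beside these marker counts, 29.0% of all tested genes were called, 15.1% as higher and 13.8% as lower in dKO.

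Recycling endosomes return internalised receptors to the surface. Of their 10 Rab genes, 5 rose, 1 fell and 4 did not pass per the authors' deposited table, so 6 of 10 were called, beside 29.0% of all tested genes and 40.4% of genes at means of 100 or more. Rab4a and Rab4b, of the fast recycling route, rose 1.50-fold from 1022 to 1532 (authors' adjusted p = 0.0013) and 1.53-fold from 1005 to 1536 (authors' adjusted p = 9.8e-05) per the authors' deposited table. Rab11a, of the slow recycling route, rose 1.37-fold from 2074 to 2837 (authors' adjusted p = 0.000838) and Rab35 rose 1.42-fold from 523 to 744 (authors' adjusted p = 0.0159) per the authors' deposited table. Rab11b, with 5844 and 6720, and Rab14, with 5289 and 5246, did not pass per the authors' deposited table, and neither did Rab12, with 111 and 95.1.

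Rab15, known from receptor recycling in neurons, rose 5.37-fold from 77.0 to 414 (authors' adjusted p = 2.87e-10) per the authors' deposited table. Its control libraries of size factor 1.02, 0.952 and 0.823 lay at 85.9, 73.5 and 71.7 normalised counts. The dKO reads had 2 solutions, 407, 514 and 319 or 754, 167 and 319 normalised counts in the libraries of size factor 1.16, 1.08 and 1.04. Every dKO library was above every control library in both. Leaving out the dKO library with size factor 1.16 gave a 5.41-fold rise in the first solution and a 3.16-fold rise in the second. Rab17, a Rab of epithelial transcytosis, fell 2.20-fold from 110 to 50.2 (authors' adjusted p = 0.046) per the authors' deposited table. It lay at 136, 84.0 and 112 normalised counts in the control libraries and at 72.7, 33.5 and 44.3 in the dKO libraries, without overlap. Rab25, an epithelial relative of Rab11, did not pass, with means of 5.66 and 0.931 per the authors' deposited table.

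Among the early endosome genes, 1 of 7 rose, 1 fell and 5 did not pass per the authors' deposited table. The share called was 28.6%, beside 29.0% of all tested genes and 40.4% of genes at means of 100 or more. Rab31, which moves cargo between the trans-Golgi network and endosomes, fell 3.98-fold from 2215 to 557 (authors' adjusted p = 2.02e-33) per the authors' deposited table. Rab22a, its closest relative, rose 1.60-fold from 595 to 954 (authors' adjusted p = 0.000357) per the authors' deposited table. The 3 Rab5 genes, which govern fusion of early endosomes, did not pass: Rab5a had means of 1444 and 1811, Rab5b 1018 and 1181 and Rab5c 1546 and 1751 per the authors' deposited table. Rab21 had 268 and 310 per the authors' deposited table, and Rab20 1.40 and 4.34.

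Of the 12 ER and Golgi genes, 2 rose, 1 fell and 9 did not pass per the authors' deposited table. Thus 3 of 12 were called, beside 29.0% of all tested genes and 40.4% of genes at means of 100 or more. Rab19, a little-studied Rab placed at the Golgi, rose 5.96-fold from 183 to 1090 (authors' adjusted p = 7.23e-39) per the authors' deposited table. Its control reads had 2 solutions, 148, 217 and 183 or 393, 114 and 41.3 normalised counts. No dKO reads were sought at its mean, so a comparison by library is not possible. Leaving out the control library with size factor 1.02 gave a 5.44-fold rise in the first and a 14.0-fold rise in the second. Rab1b, which acts in transport from the ER to the Golgi, rose 1.42-fold from 4140 to 5895 (authors' adjusted p = 8.41e-06) per the authors' deposited table, and its partner Rab1, the present Rab1a, had 3220 and 3829 without passing (authors' adjusted p = 0.0892). Rab6b, the Rab6 form best known from neurons, fell 5.06-fold from 80.2 to 15.9 (authors' adjusted p = 0.0013) per the authors' deposited table. It lay at 87.8, 55.7 and 97.2 normalised counts in the control libraries and at 38.1, 2.79 and 6.74 in the dKO libraries, so that most of its dKO reads were in 1 library. The fall was 16.8-fold without that dKO library, of size factor 1.16. Rab2a (3945 and 3816) and Rab18 (2618 and 2553) did not pass per the authors' deposited table, nor did Rab6 (1975 and 1839). The rest of this role, Rab43 (962 and 1069), Rab33b (804 and 835), Rab2b (584 and 642), Rab33a (85.2 and 56.9) and Rab30 (1.05 and 5.39), did not pass either.

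Both Rab8 genes, which carry cargo from the Golgi and recycling endosomes to the plasma membrane, rose. Rab8a rose 1.41-fold from 4551 to 6411 (authors' adjusted p = 0.000167) and Rab8b 1.39-fold from 5087 to 7093 (authors' adjusted p = 3.58e-05) per the authors' deposited table. Rab10, of the same route, had means of 5337 and 5644 and Rab13 had 11.4 and 6.75 per the authors' deposited table, neither of which passed. At the late endosome and lysosome, Rab7, which drives fusion with lysosomes, rose 1.32-fold from 1716 to 2272 (authors' adjusted p = 0.00572) per the authors' deposited table. Rab9, which returns mannose 6-phosphate receptors to the Golgi, fell 1.36-fold from 744 to 546 (authors' adjusted p = 0.0395) per the authors' deposited table. Rab36 lay at 0.976, 17.9 and 21.9 normalised counts in the control libraries and at 42.4, 25.1 and 37.6 in the dKO libraries, with an adjusted p of 0.214 per the authors' deposited table. In the control libraries of size factor 1.02, 0.952 and 0.823, Rab34 had 22, 0 and 21 reads and Rab39 had 20, 0 and 16. In the dKO libraries of size factor 1.16, 1.08 and 1.04, Rab34 had 2, 27 and 12 reads and Rab39 had 3, 26 and 20. Neither gene passed (authors' adjusted p = 0.958 for Rab34 and 0.98 for Rab39). Rab39b had means of 0.810 and 2.74 and did not pass. Of the 2 genes linked to cilia, Rab28 had means of 1011 and 797 and Rab23 had 209 and 176 per the authors' deposited table, and the remaining genes Rab24 (999 and 1031), Rab40c (624 and 549) and Rab40b (1.62 and 5.75) did not pass.

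The 22 Rab genes with a mean of at least 100 that did not pass had ratios of dKO to control between 0.788 and 1.29 per the authors' deposited table, and 19 of them lay within 1.2-fold. No interval can be given for these ratios from group means, and a p over the threshold does not show equal levels. None of the 7 tested Rab genes with a mean under 10 passed, where 1.26% of all such genes did. Of 8 Rab genes with a mean of at least 10 and both means up to 100, the libraries of the groups did not overlap for 3 (Rab6b, Rab36 and Rab3c), where 33.8% of 2280 genes of that kind did not overlap.

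**Figure D3:**
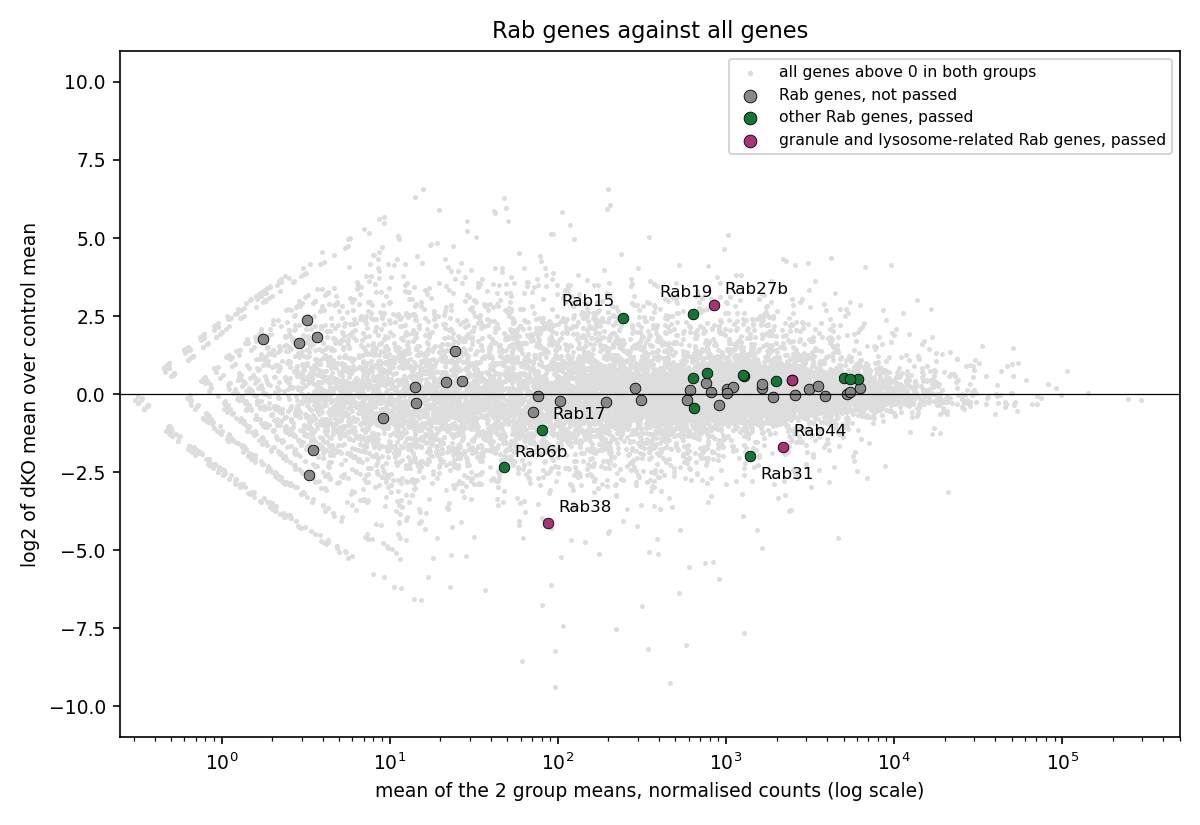
Log2 of the dKO mean over the control mean (vertical axis) against the mean of the 2 group means in normalised counts (horizontal, log scale) for all genes above 0 in both groups (light grey) and the 55 tested Rab genes (larger points). Genes that moved at least 2-fold are named, and the abundant Rab genes that rose lie a short way above 0, as Rab4b at 0.61 and Rab7 at 0.41, whereas Rab44 lies at -1.69 and Rab31 at -1.99.

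Related genes can be set side by side on a scale per length, here the group mean divided by the exonic length of the gene in GENCODE M21, which may differ from the annotation the authors counted on. On this scale Rab1b was the highest of the 56 Rab genes in both groups, at 2063 in control and 2937 in dKO per kb, followed by Rab2a (1849 and 1789 per kb) and Rab14 (1717 and 1703 per kb). Rab27b made up 2.83% of the pair Rab27a and Rab27b in control and 16.0% in dKO, so Rab27a remained the larger part in both. Rab38 made up 40.7% of the pair with Rab32 in control and 4.27% in dKO. Rab31 made up 87.6% of the pair with Rab22a in control and 52.5% in dKO, and the summed level per kb of that pair was lower in dKO. Rab6b was 2.70% of the Rab6 pair in control and 0.585% in dKO. The shares of Rab4b (59.2% and 59.6%) and Rab8b (51.8% and 51.5%) in their pairs were nearly equal in the groups. How reads that match more than 1 related gene were counted is not given in the sources used here, nor is the use of strand, so levels of close relatives and of overlapping genes are uncertain to that extent.

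**Figure D4:**
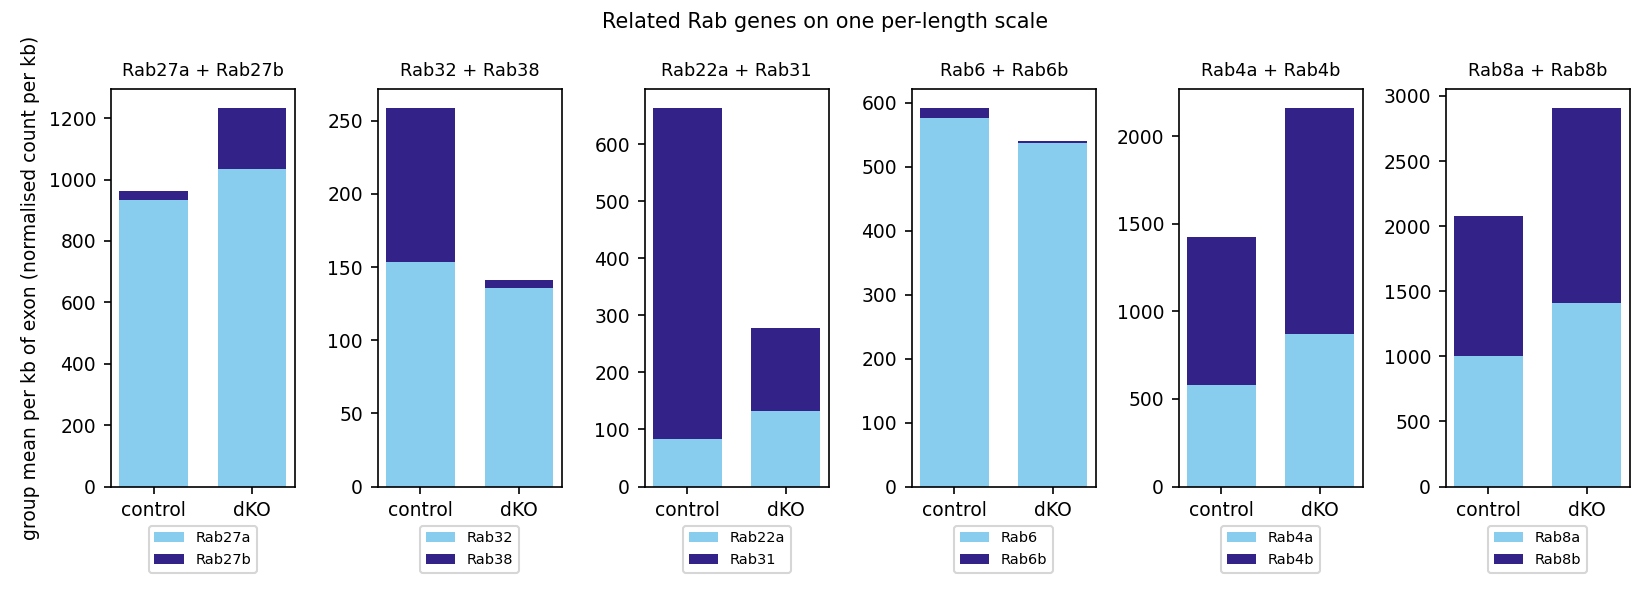
Group means per kb of exon (vertical axes, linear from 0 and different for each pair) of 6 pairs of related Rab genes in control and dKO, stacked, the paler part being the gene named first. Rab27b grows within its pair from 2.83% to 16.0%, Rab38 shrinks from 40.7% to 4.27%, and the Rab4 and Rab8 pairs keep their shares.

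The genes that control and use Rab proteins were counted from lists written for this comparison, with earlier results of these data known. Of 8 genes for prenylation, extraction or other binding of Rab proteins, 2 rose and none fell per the authors' deposited table. At an adjusted p under 0.05, 2 of 8 were thus called, beside 29.0% of all tested genes. Every gene of this list had a mean of at least 100, where 40.4% of all genes were called. Rabif, which binds the nucleotide-free form of several Rab proteins, rose 1.45-fold from 1238 to 1801 per the authors' deposited table. Gdi2, a GDP dissociation inhibitor, had means of 16943 and 17007 and Rabggta had 1192 and 1478 per the authors' deposited table, neither of which passed. Of 34 GEFs, 8 rose, 5 fell and 21 did not pass per the authors' deposited table, which is 38.2% called, beside 29.0% of all tested genes and 40.4% of genes at means of 100 or more. Ankrd27, an exchange factor for Rab21 that also binds Rab32 and Rab38, fell 2.17-fold from 7326 to 3373 per the authors' deposited table. Dennd1c, which acts on Rab35, rose 2.37-fold from 1060 to 2511, Dennd5a rose 1.73-fold and Dennd4a fell 1.66-fold per the authors' deposited table. The most abundant GEFs that did not pass were Gapvd1 (3963 and 3438) and Sbf1 (2979 and 3559) per the authors' deposited table.

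Of 34 GAPs tested, 4 rose, 11 fell and 19 did not pass per the authors' deposited table. That is 44.1% called and 32.4% lower, beside 29.0% and 13.8% of all tested genes and 40.4% and 19.1% of genes at means of 100 or more. The median log2 change of the GAPs was -0.16, beside -0.01 over all tested genes. Tbc1d16, known as a GAP for Rab4, fell 3.63-fold from 643 to 177, Tbc1d4 fell 2.54-fold from 1119 to 441, Rabgap1l 2.52-fold from 1842 to 730 and Tbc1d9b 2.48-fold from 6967 to 2814 per the authors' deposited table. Tbc1d10a, which acts on Rab27a, rose 2.24-fold from 724 to 1625 per the authors' deposited table. Tbc1d15 (2373 and 2358) and Rab3gap1 (2256 and 2314) did not pass per the authors' deposited table.

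The effectors of Rab27 and Rab3 moved in both directions: of 10 tested (15 listed), 2 rose, 3 fell and 5 did not pass per the authors' deposited table, so 5 of 10 were called, beside 29.0% of all tested genes. Sytl2, a synaptotagmin-like protein that ties Rab27 granules to the plasma membrane, rose 5.10-fold from 380 to 1939 (authors' adjusted p = 3.83e-30) per the authors' deposited table. Its relatives Sytl3 and Sytl4 fell, Sytl3 2.81-fold from 1159 to 413 and Sytl4 5.74-fold from 144 to 25.1, per the authors' deposited table. Unc13d, the Munc13-4 protein that primes cytotoxic granules, rose 1.27-fold from 3701 to 4682 and Myo5a, the myosin that carries Rab27a organelles, fell 1.36-fold from 1112 to 815 per the authors' deposited table. Sytl1 (1212 and 1278) and Rph3al (43.9 and 42.0) did not pass per the authors' deposited table.

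Of 25 effectors of endosomal Rab proteins, 8 rose, 1 fell and 16 did not pass per the authors' deposited table. That is 36.0% called and 32.0% higher, beside 29.0% and 15.1% of all tested genes and 40.4% and 21.2% of genes at means of 100 or more. Wdr44, an effector of Rab11, rose 3.92-fold from 384 to 1506, Plekhm1, which binds Rab7, rose 1.81-fold from 640 to 1155, Ehbp1l1 1.72-fold from 1707 to 2931 and Rab11fip4 2.22-fold from 87.5 to 194 per the authors' deposited table. Rilpl2 was the member that fell, 1.57-fold from 1480 to 944, and the tether subunits Vps41 (2127 and 2130) and Vps39 (1635 and 1623) did not pass per the authors' deposited table. Of 30 genes of granule formation and fusion, 5 rose, 3 fell and 22 did not pass per the authors' deposited table. The share called was 26.7%, beside 29.0% of all tested genes. Every tested gene of this list had a mean of at least 100, where 40.4% of all genes were called. Stx11, the syntaxin of cytotoxic granule release, rose 3.29-fold from 102 to 336, Ap3s1 1.93-fold from 1971 to 3802 and Vamp2 1.68-fold from 937 to 1575, whereas Vamp8 fell 1.60-fold from 2522 to 1572 and Bloc1s2 1.70-fold from 1747 to 1026 per the authors' deposited table. The granule proteoglycan gene Srgn (5578 and 6563) and Stxbp2 (3870 and 4431), the partner of Stx11, did not pass per the authors' deposited table.

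**Figure D5:**
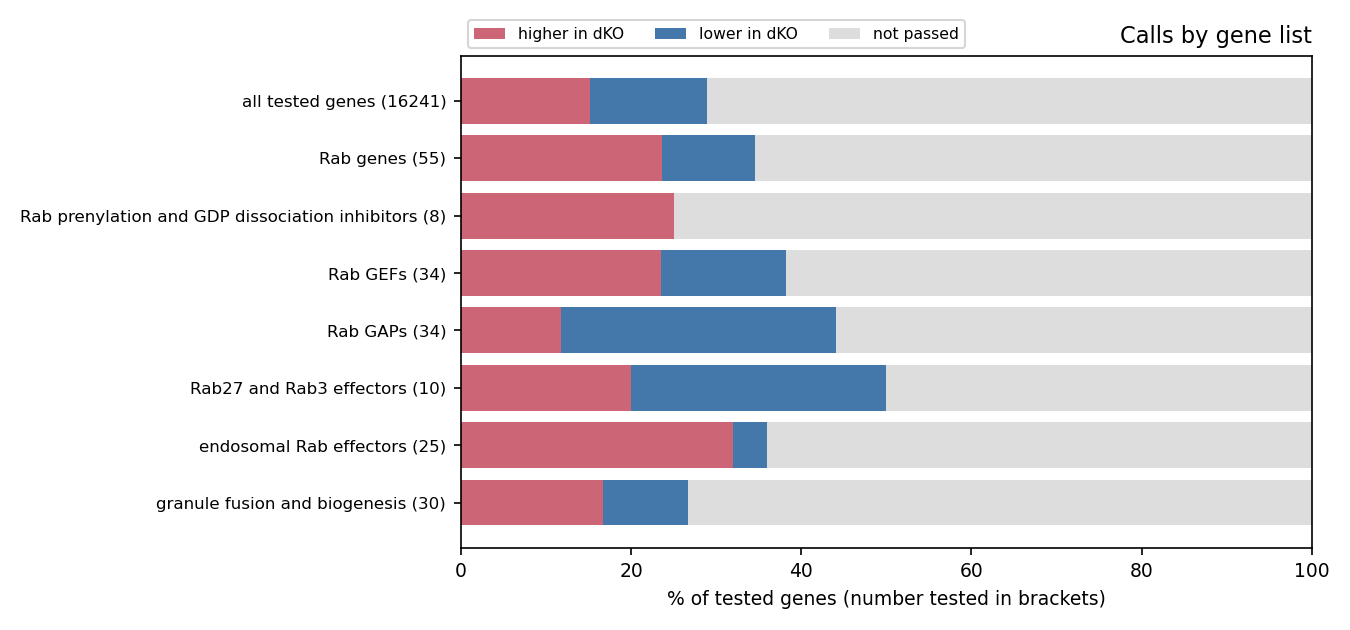
Share of tested genes (horizontal axis, percent) that were higher in dKO, lower in dKO or did not pass at an adjusted p under 0.05 in the authors' deposited table, for all tested genes, the Rab genes and 6 lists of Rab regulators and effectors, with the number tested in brackets. GAPs hold 11 falls and 4 rises, and endosomal effectors hold 8 rises and 1 fall.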

How the data were processed

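RNA of sorted cells was amplified with a low-input SMARTer kit, made into libraries and sequenced on a HiSeq, per the labels' protocols. Build mm9, TopHat2 2.0.14, bcl2fastq 1.8.4 and DESeq (version 2) are named, without roles, per the submitters' processing notes. Which gene counter and annotation were used is not given in the sources used here. Per the file headers, the authors' table holds for each gene a signal value per group (the mean normalised count), their fold, which is the ratio of the dKO mean to the control mean, and their p-value and adjusted p-value. Ratios recomputed from the means matched the deposited fold ratio within a relative 1.12e-07, and a Benjamini-Hochberg adjustment of the deposited p-values matched within 4.08e-07. No new test was made: the design named the authors' own test for a table of group means. Log2 changes were computed from the means, with a group at 0 set to 3 reads over the group (1.21 in control, 0.963 in dKO), and none was given where the other mean was also under its floor.

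Each mean is a weighted sum of whole reads. Every value up to 100 (5259 in control, 5361 in dKO) had 1 solution in whole reads at the rounding of the table. Of 2000 random values in each group, 0% had a solution. The solver was tested on simulated data for means up to 100 only. Up to a mean of 500 every solution was kept, but those for means over 100 were not covered by that test. DESeq2 on recovered reads was not run, since reads of abundant genes could not be recovered. The cDNA was amplified before counting, so the limit given for 0 reads covers counting error only. Every Rab gene that passed and every granule Rab is named, with up to 3 others per role and the rest of the family for completeness, and per pathway list the 5 with the smallest adjusted p among those that passed and the 2 with the highest mean among the rest. Some genes that this rule names are not reported here. Members and lists were chosen with earlier results of these data known. Dennd6a, Dennd6b and Ric1 were matched through synonyms. Start regions are from RefSeq (46 of 56 members matched), and lengths from GENCODE M21 (56 of 56). Python 3.11.15, numpy 2.4.6 and pandas 2.3.3 were used.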

Additional observations from a re-analysis of the deposited data

How the results depend on the processing

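The count of 19 Rab genes called was 16 at an adjusted p under 0.01, 22 at 0.1 and 19 when genes with a mean under 10 were left out. It was 8 with a minimum of 2-fold and 7 with a Bonferroni adjustment. Of the 13 that rose, 3 remained with a minimum of 2-fold and 4 with a Bonferroni adjustment, and of the 6 that fell, 3 remained with a Bonferroni adjustment. The median log2 change of 0.18 was 0.10 with both groups scaled to 1 total, 0.17 centred on genes with a mean of at least 100, 0.18 with a pseudocount of 1 and 0.19 for Rab genes with a mean of at least 100. No Rab gene that passed changed direction under either scaling, and none could have. The scalings shifted every log2 change by -0.08 and -0.01, and the smallest change among Rab genes that passed was 0.41 in size. The pathway counts moved by over 1.5 times with a minimum of 2-fold: 0 prenylation genes, 4 GEFs, 6 GAPs, 3 effectors of Rab27 and Rab3, 2 endosomal effectors and 1 granule gene were left, and endosomal effectors numbered 5 at an adjusted p under 0.01. With 1 library left out, log2 changes ranged from 2.43 to 3.83 for Rab27b, from 2.10 to 3.81 for Rab19, from 1.66 to 2.80 for Rab15, from -4.67 to -1.78 for Rab38, from -4.07 to -1.84 for Rab6b and from -1.51 to -0.92 for Rab17, over all read solutions. For Rab27b and Rab19 only control libraries could be left out. The authors' test could not be repeated without a library, since it needs the reads of all genes. With both groups scaled to 1 total, 3 Rab genes that did not pass changed direction. No paired analysis was possible because the deposited columns are group means and carry no replicate number.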
